A study of Homo sapiens with 16 samples.

Results

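The genes described here are 8 of the 58721 in the count table: the trefoil factors TFF1, TFF2 and TFF3, the anterior gradient proteins AGR2 and AGR3, and the surface proteins PSCA, LY6D and LYPD3. Rows were taken by gene name. The group was put together because TFF1 and PSCA were the genes with the lowest ratios among those called lower after FOXA1 knock-down in RT112, so the RT112 differences between siFOXA1 and siControl are descriptions here and carry no test. Just outside that pair stood HPGD, with a log2 fold change of -2.44 against -2.81 for PSCA and -4.08 for TFF1. RNA was measured in 16 libraries of RT112 and SCaBER, both human bladder cancer cell lines, classed by the study as luminal papillary and as basal/squamous. All cells were transfected with 10 nM of siRNA using a lipid reagent: siFOXA1.1 or siFOXA1.2 against FOXA1, or siControl.1 or siControl.2. Each siRNA had 2 libraries per line, which the labels number as batch replicates 1 and 2. Where each siRNA had its own mean, p-values measure the spread between these libraries. In the pooled comparisons and between the lines, differences between the siRNAs of a target count as spread too. TFF1 and PSCA were picked by such a pooled comparison. Their p-values between the siRNAs of a target in RT112 are therefore not independent of the choice. Each line stands for its subtype alone, the lines were grown in different media, and no untransfected cells are among the libraries.

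Trefoil factors are small secreted peptides that mucosal epithelia release together with mucins and that take part in repair of the surface. AGR2 and AGR3 belong to the protein disulfide isomerases of the endoplasmic reticulum, and AGR2 assists the folding of mucins. PSCA, LY6D and LYPD3 are members of the LY6/uPAR family, small disulfide-rich proteins held on the cell surface by a lipid anchor. FOXA1 is a forkhead transcription factor that opens chromatin in luminal epithelial cells, among them those of the urothelium.

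Library totals were 6622473 to 7604581 counts in RT112 and 4528513 to 6914951 in SCaBER. A count of 3 in a library was taken as the limit of detection, and it covers counting error only. As CPM, the count after division by the size of its library, this limit was between 0.394 and 0.453 for RT112 libraries and between 0.434 and 0.662 for SCaBER libraries. All 14 luminal markers tested were higher in RT112 siControl than in SCaBER siControl and 11 of 13 basal markers were lower, where 43.4% of all genes were called in either direction. Only 10 luminal markers passed the filter within SCaBER, and only 11 basal markers within RT112. The others entered through the line where they were high, which set their direction in advance, so these counts are a description. KRT16, a basal marker, was higher by 0.90 in log2 (adjusted p = 0.0370, edgeR), TP63 was not called, and KRT20 and UPK3A, markers of the most differentiated urothelial cells, were at 0 in the siControl libraries of both lines. The mitochondrial share of counts was 25.7% to 28.2% in RT112 siFOXA1.1 libraries, 18.0% to 21.2% in the other RT112 libraries and 10.3% to 12.1% in SCaBER, and its part in the results was not tested. In cultures of this kind fewer cells of a type and less RNA per cell cannot be told apart.

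FOXA1 itself was checked first. In RT112 it had 266 and 195 counts under siControl.1 and 137 and 204 under siControl.2, against 9 and 22 under siFOXA1.1 and 63 and 117 under siFOXA1.2. The siFOXA1 libraries therefore kept 8.21% of the siControl CPM with siFOXA1.1 and 45.3% with siFOXA1.2. Against siControl the log2 fold change was -3.44 with siFOXA1.1 (SE 0.47, adjusted p = 2.19e-05, edgeR). With siFOXA1.2 it was -1.10 and was not called (SE 0.39, adjusted p = 0.205, edgeR). FOXA1 was not called in the pooled comparison either, at -1.86 (SE 0.57, adjusted p = 0.278, edgeR). The siRNAs differed by -2.34 on the log2 scale (SE 0.50, n = 2 against 2, adjusted p = 0.00181, edgeR quasi-likelihood test). In SCaBER FOXA1 was near the limit already in siControl, with 3 and 4 counts under siControl.1 and 15 and 9 under siControl.2, against 0 and 3 under siFOXA1.1 and 0 and 6 under siFOXA1.2.

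The first question was how high each of the 8 genes stood in each line. In RT112 siControl 5 genes were abundant and 3 were at or near 0. On the TPM scale, which divides by gene length although this kit reads transcript ends, the order in RT112 siControl was LY6D with 324 ± 87.7 TPM, LYPD3 with 222 ± 30.3, TFF1 with 214 ± 67.6, PSCA with 204 ± 118 and AGR2 with 78.9 ± 15.5 (SD, n = 4 each). The library ranges of the first 4 genes in that order overlapped, so their order was not resolved. The highest AGR2 library, at 100.7 TPM, was above the lowest PSCA library, at 87.8 TPM. In SCaBER siControl only LYPD3 was abundant, with 163 ± 74.5 TPM, followed by LY6D with 5.62 ± 4.71, AGR2 with 1.48 ± 0.325 and PSCA with 0.53 ± 1.06 TPM (SD, n = 4 each).

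**Figure D1:**
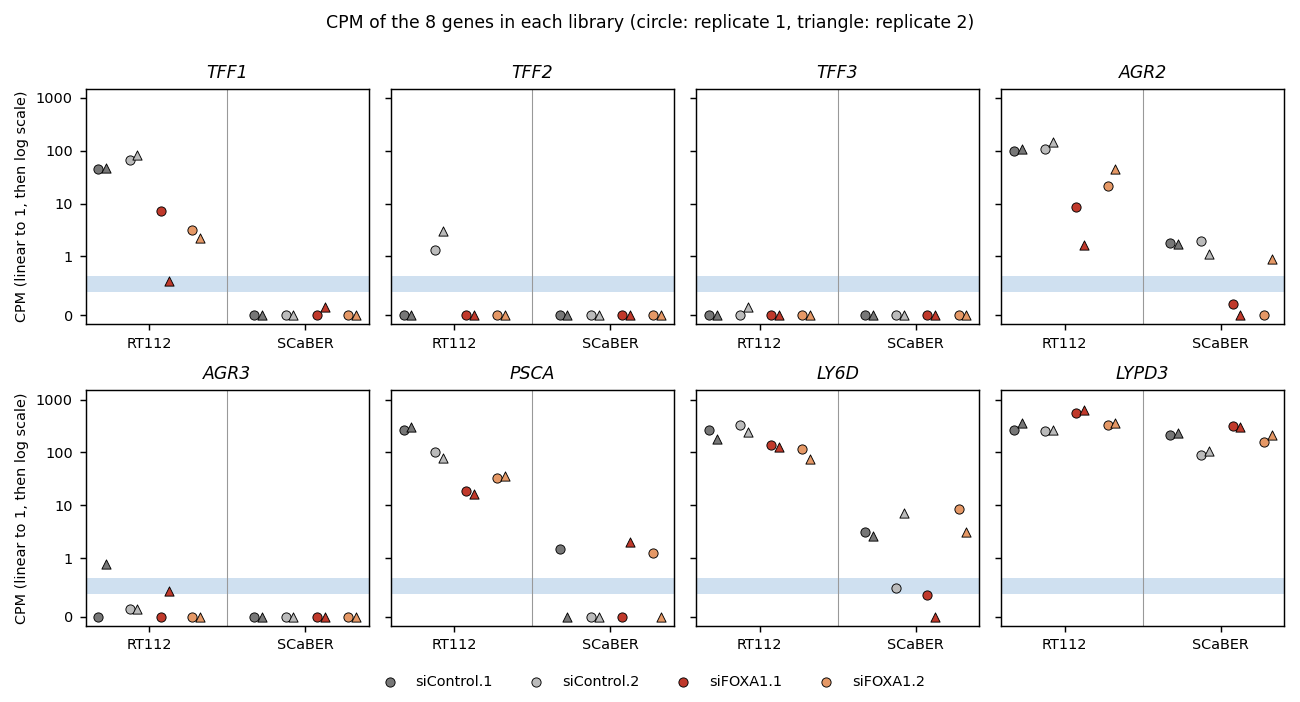
CPM of each of the 8 genes in the 16 libraries, on an axis that is linear to 1 and logarithmic above it. Circles are replicate 1 and triangles replicate 2, coloured by siRNA, and the pale band spans the CPM that 3 counts give in these libraries. LYPD3 is high in both lines, TFF1, PSCA, AGR2 and LY6D are high in RT112, and TFF3 and AGR3 lie at or near 0.

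TFF1 (ENSG00000160182), TFF2 and TFF3 lie together on chromosome 21 (GRCh38.p14, 42362282 to 42366535, 42346357 to 42350994 and 42311667 to 42315409), yet TFF1 was the one trefoil gene with a high count. TFF1 had 45.1 and 47.1 CPM in the RT112 siControl.1 libraries and 65.7 and 81.7 CPM in the siControl.2 libraries. In SCaBER siControl it was at 0 in all 4 libraries, so RT112 stood at least 113-fold higher against a limit of 3 counts per library, a value given without a test because TFF1 was chosen on these RT112 libraries. TFF2 was counted in the RT112 siControl.2 libraries alone, with 10 and 22 counts, and was at 0 in the other 6 RT112 libraries and in all 8 of SCaBER. TFF2 did not pass the filter on low counts; in a fit without that filter its difference between the control siRNAs had an adjusted p of 0.665 (edgeR). TFF3 had 1 count in 1 RT112 library and 0 in the rest. No fold is given for it.

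Under siFOXA1 the TFF1 level in RT112 was a small part of the control level. The siFOXA1.1 libraries had 7.32 and 0.589 CPM and the siFOXA1.2 libraries 3.21 and 2.19 CPM, all below the lowest siControl library. Relative to siControl that is 6.60% for siFOXA1.1 and 4.5% for siFOXA1.2. The fitted log2 fold changes were -3.75 (SE 0.52) and -4.41 (SE 0.54). The first was -6.44 without siFOXA1.1 replicate 1 and -2.89 without siFOXA1.1 replicate 2. With both siRNAs pooled it was -4.08 (SE 0.54), rank 6 from the lowest of the 11986 genes tested. The siRNA that left less FOXA1 did not leave less TFF1 beyond the spread: siFOXA1.1 against siFOXA1.2 gave 0.66 on the log2 scale (adjusted p = 0.470, edgeR; SE 0.62). That value turned on the 2 siFOXA1.1 libraries, of 50 and 4 counts. Without replicate 1 of siFOXA1.1 it was -2.02 (adjusted p = 0.0292) and without replicate 2 it was 1.52 (adjusted p = 0.00850).

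AGR2 (ENSG00000106541) and AGR3 are neighbours on chromosome 7 (GRCh38.p14, 16791811 to 16804999 and 16854681 to 16881983). Their levels differed widely in RT112. AGR2 had 705 to 1031 counts in the siControl libraries, whereas AGR3 reached at most 6 counts in any RT112 library and was at 0 in SCaBER throughout. The 250 bases before the annotated starts (RefSeq, GRCh38.p14, minus strand, chr7:16805000-16805249 for AGR2 and chr7:16881984-16882233 for AGR3) are shown to set this expressed gene beside its near-silent neighbour. Capitals mark the only match to any of the letters searched on both strands: AGATAA in AGR2, a GATA-type motif, and TATAAA in AGR3.
AGR2: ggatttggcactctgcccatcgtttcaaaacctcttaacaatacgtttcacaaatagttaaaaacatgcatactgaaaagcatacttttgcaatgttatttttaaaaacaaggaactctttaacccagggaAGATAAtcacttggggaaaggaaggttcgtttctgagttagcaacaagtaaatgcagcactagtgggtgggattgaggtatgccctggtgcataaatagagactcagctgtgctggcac
AGR3: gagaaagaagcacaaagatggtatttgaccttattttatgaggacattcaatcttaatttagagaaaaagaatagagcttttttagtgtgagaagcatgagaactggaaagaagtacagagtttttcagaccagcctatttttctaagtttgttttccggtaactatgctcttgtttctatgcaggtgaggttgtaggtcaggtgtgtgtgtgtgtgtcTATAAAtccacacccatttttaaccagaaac
The AGR2 match lies 119 to 114 bases before the start and the AGR3 match 31 to 26 bases before it. GATA-type motifs were searched as AGATAA or TGATAA. Of 35116 promoters of this length 14.6% hold a GATA-type motif of either form and 10.7% TATAAA. The share with AGATAA alone was not computed. Forkhead motifs, which FOXA1 family proteins can bind, were searched as TGTTTAC and, with the base after the start changed, as TATTTAC, or with the base before the end changed as TGTTTGC and with both changed as TATTTGC. They occur in 10.6% of all promoters and in neither of these windows, which says nothing of binding elsewhere.

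AGR2 separated the lines and also the siRNAs. RT112 siControl libraries had 97.8 to 143 CPM and SCaBER siControl libraries 1.1 to 1.95 CPM, a log2 difference of 6.08 (SE 0.24, n = 4 against 4). AGR2 did not pass the filter in SCaBER and entered that comparison through its RT112 counts. The difference is therefore a description and carries no p. Under siFOXA1.1 the RT112 libraries had 8.64 and 1.62 CPM, and under siFOXA1.2 they had 21.6 and 45.3 CPM. All 4 were below every siControl library, at 4.49% and 29.3% of the control mean, with log2 fold changes of -4.34 (SE 0.43) and -1.74 (SE 0.34). The first was -5.96 without siFOXA1.1 replicate 1 and -3.61 without siFOXA1.1 replicate 2. The siRNAs differed from each other by -2.60 (SE 0.44, n = 2 against 2, adjusted p = 0.000273, edgeR), the same direction as FOXA1. The direction and the call held in all 16 alternatives, from -1.87 without siFOXA1.1 replicate 2 to -4.22 without siFOXA1.1 replicate 1.

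In SCaBER, whose libraries had no part in the choice of genes, AGR2 was near the limit of detection. The siControl libraries had 11 and 11 counts (siControl.1) and 12 and 5 (siControl.2), against 1 and 0 under siFOXA1.1 and 0 and 6 under siFOXA1.2. Scaled to library size this was 1.65 ± 0.376 CPM in siControl and 0.285 ± 0.453 CPM in siFOXA1 (SD, n = 4 each), with every siFOXA1 library below every siControl library. On CPM, an exact permutation test (two-sided) gave p = 0.0286, the smallest that 70 splits allow, but splits of whole siRNAs allow none under 0.333. Of the SCaBER genes tested 2.85% were lower without overlap. AGR2 did not pass the filter, and the fit without it gave an adjusted p of 0.609 (edgeR).

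PSCA (ENSG00000167653) and LY6D (ENSG00000167656) lie near each other on chromosome 8 (GRCh38.p14, 142670297 to 142682725 and 142784882 to 142786539), and LYPD3 (ENSG00000124466) lies on chromosome 19 (43460787 to 43465608). PSCA, first described as a prostate stem cell antigen, differed between the control siRNAs of RT112 as well as under siFOXA1. It had 263 and 303 CPM under siControl.1 and 103 and 77.4 CPM under siControl.2. The siFOXA1.1 libraries had 19.0 and 16.1 CPM and the siFOXA1.2 libraries 33.2 and 35.1 CPM. The 4 siRNAs formed steps without overlap.

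The gap between the controls was a log2 fold change of 1.71, or 3.27-fold (SE 0.19, n = 2 against 2, adjusted p = 2.91e-05, edgeR). PSCA was the 1 member of the 5 tested that was called there, where 2.36% of all genes were, and the call held in 15 of 16 alternatives. Against siControl the log2 fold change was -3.05 (SE 0.19) for siFOXA1.1 and -2.21 (SE 0.18) for siFOXA1.2. Its size depended on the control. Against siControl.1 alone these were -3.91 and -3.06, and against siControl.2 alone -2.20 and -1.35. PSCA was lower under siFOXA1.1 than under siFOXA1.2 by -0.85 (SE 0.20, n = 2 against 2, adjusted p = 0.00463, edgeR), a call kept in 16 of 16 alternatives. In SCaBER it had 9, 14 and 8 counts in 1 library each of siControl.1, siFOXA1.1 and siFOXA1.2 and 0 in the other 5, and the exact permutation p for siFOXA1 against siControl was 0.714 (n = 4 against 4).

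**Figure D2:**
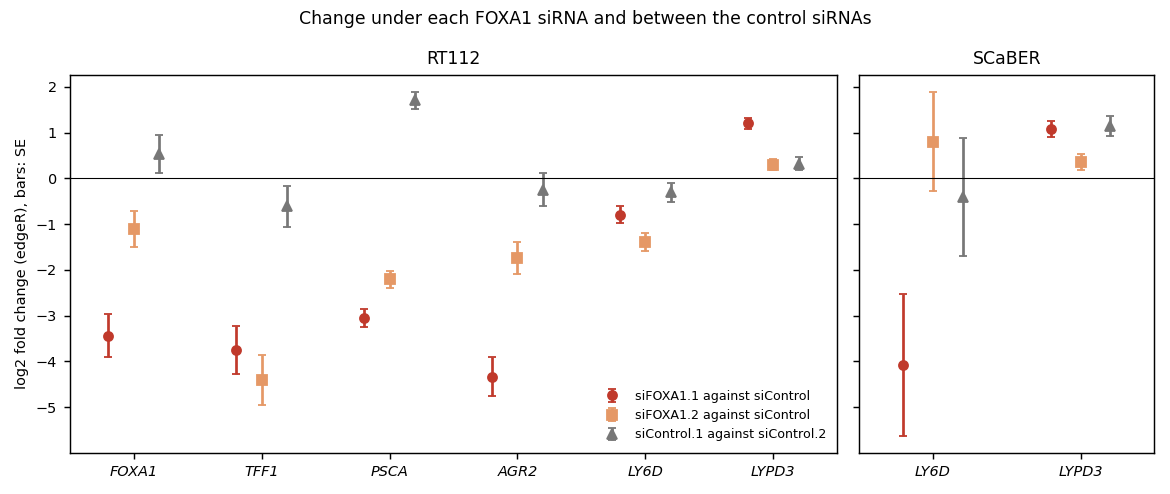
Log2 fold change with its SE (bars) for FOXA1 and the 5 members tested in RT112, and for the 2 tested in SCaBER. Circles and squares are siFOXA1.1 and siFOXA1.2 against the mean of both controls, and triangles are siControl.1 against siControl.2. PSCA is the member with the largest gap between the RT112 controls, at 1.71.

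LY6D, a surface protein of stratified epithelia, also stood far higher in RT112. Its siControl libraries had 178 to 330 CPM there and 0.487 to 7.29 CPM in SCaBER, a log2 difference of 6.32 (SE 0.42, n = 4 against 4, adjusted p = 2.34e-08, edgeR). Under siFOXA1.1 the RT112 libraries had 139 and 127 CPM, and under siFOXA1.2 they had 115 and 75.8 CPM. All 4 were below every control library. The level was 52% of siControl with siFOXA1.1 and 37.3% with siFOXA1.2, so the order of the siRNAs was the opposite of that for FOXA1. The direct difference was 0.60 (SE 0.21, n = 2 against 2, adjusted p = 0.0424, edgeR), but the call held in 8 of 16 alternatives, and with library totals in place of TMM it was 0.48 (adjusted p = 0.102).

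In SCaBER LY6D varied widely at low counts. The libraries had 19 and 17 counts under siControl.1, 3 and 33 under siControl.2, 2 and 0 under siFOXA1.1 and 54 and 20 under siFOXA1.2. Only the siFOXA1.1 pair lay below every other library. Against siControl it changed by -4.07 (log2, SE 1.55, adjusted p = 0.125, edgeR) for siFOXA1.1 and 0.81 (SE 1.07, adjusted p = 0.999) for siFOXA1.2. DESeq2 gave an adjusted p of 0.0447 for siFOXA1.1. The difference between siFOXA1 siRNAs was -4.88 (SE 1.65, adjusted p = 0.114) and, set against that of RT112 in a test added after the data were seen, differed between the lines with an adjusted p of 0.0174, where 1.18% of genes were called.

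LYPD3, a surface protein of the upper layers of squamous epithelia, went the other way. In RT112 it had 257 to 355 CPM in siControl, 567 and 627 CPM under siFOXA1.1 and 335 and 358 CPM under siFOXA1.2. The siFOXA1.1 libraries were above every control, whereas siFOXA1.2 replicate 1 lay within the control range. Relative to siControl this was 208% and 121%, with log2 fold changes of 1.2 (SE 0.12) and 0.30 (SE 0.12). The siRNAs differed by 0.90 (SE 0.14, n = 2 against 2, adjusted p = 0.000102, edgeR), called in 16 of 16 alternatives. LYPD3 was 0.85 higher in log2 in RT112 siControl than in SCaBER siControl (SE 0.26, n = 4 against 4, adjusted p = 0.0140, edgeR). That call was lost in 4 of 16 alternatives, among them limma on log2(TPM + 1), with an adjusted p of 0.133, and leaving out SCaBER siControl.2 replicate 2, with 0.0546.

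In SCaBER LYPD3 was 215 and 229 CPM under siControl.1, 90.5 and 107 under siControl.2, 311 and 303 under siFOXA1.1 and 159 and 217 under siFOXA1.2. Both siFOXA1.1 libraries were above every control. Against siControl LYPD3 rose by 1.08 (log2) with siFOXA1.1 (SE 0.18, n = 2 against 4, adjusted p = 0.00158, edgeR), where 9.26% of SCaBER genes were called. The controls themselves lay 1.15 apart (SE 0.22, adjusted p = 0.0610, edgeR; with the batch replicate as a block, adjusted p = 0.0182), in a comparison that called 0.0672% of genes. The RT112 controls differed by 0.32 (SE 0.14, adjusted p = 0.311), and the gap between the lines in this was not called in a test added after the data were seen (adjusted p = 0.496, 0.0841% of genes called). Against siControl.1 alone the siFOXA1.1 difference was 0.51 and was not called (adjusted p = 0.198), and against siControl.2 alone it was 1.66 (adjusted p = 0.000386). With siFOXA1.2 the value was 0.36 (SE 0.18, adjusted p = 0.985, 0.0420% of genes called). The siFOXA1 siRNAs differed by 0.72 (SE 0.21, adjusted p = 0.0693, edgeR; with the block, adjusted p = 0.0351), and 4.85% of genes were called.

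No member passed the pooled test in SCaBER, where 0.00840% of genes did in edgeR. LYPD3 had an unadjusted p of 0.0457 and LY6D one of 0.895 there, and the counts by every alternative were 0. In RT112 2 of 5 members tested were called in the pooled comparison (0.108% of all genes), 5 of 5 with siFOXA1.1 (32.6%) and 4 of 5 with siFOXA1.2 (2.04%), in comparisons that entered the choice of genes. With the batch replicate as a block the pooled count was 0. TFF1, PSCA, AGR2 and LY6D were lower without overlap of the 4 and 4 libraries, as were 5.30% of all genes tested. For siFOXA1.1 against siFOXA1.2, 4 of 5 were called against 28.1% of all genes, 2 in each direction. That gap entered the choice of TFF1 and PSCA as spread, so the count is not independent of it. The siFOXA1.1 libraries were also those with the higher mitochondrial share, whose part was not tested. The 3 other members, TFF2, TFF3 and AGR3, did not pass the filter in either line.

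**Figure D3:**
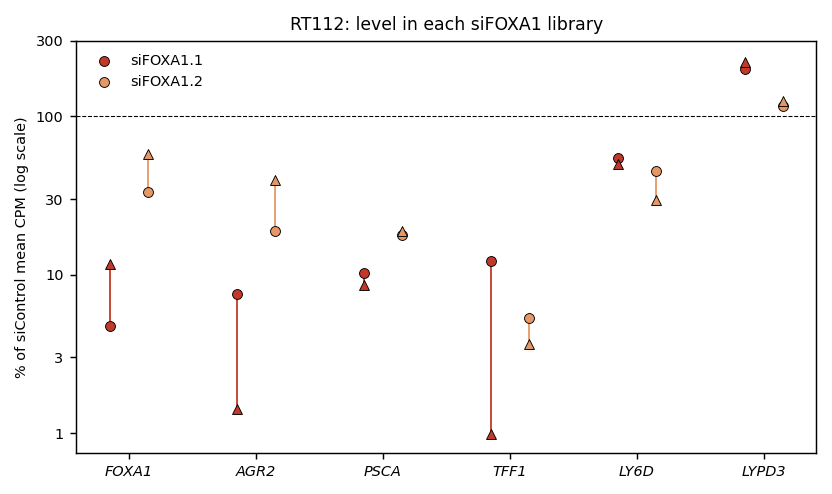
Level in each RT112 siFOXA1 library as a percentage of the mean siControl CPM, on a log axis. Circles are replicate 1 and triangles replicate 2, joined by a line within a siRNA, and the dashed line marks the control mean. AGR2 and PSCA lie lower with siFOXA1.1, as FOXA1 does, the TFF1 values of siFOXA1.1 span those of siFOXA1.2, and LY6D and LYPD3 lie higher with siFOXA1.1.

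The same pattern over the 8 RT112 libraries was looked for among 10912 other genes, as the root mean square difference of log2 CPM after centring each gene on its mean. Nearest to PSCA were HPGD at 0.322, DENND2D at 0.444, S100P at 0.477, AKR1C2 at 0.478 and SQOR at 0.554. HPGD degrades prostaglandins, S100P is a calcium-binding protein of luminal urothelium and AKR1C2 reduces steroids. In all 5 both siControl.1 libraries lay above both siControl.2 libraries, as for PSCA. SQOR did not keep the other steps, since its siControl.2 replicate 1 lay below its siFOXA1.2 replicate 1. Nearest to TFF1 were SLC14A1, a urea transporter of urothelium, at 1.1, OSBP2 at 1.12, NEIL3, a DNA glycosylase, at 1.19, AGR2 at 1.21 and the unnamed transcript AL928654.1 at 1.22. TFF1 thus had no neighbour as near as those of PSCA, and TFF1 and PSCA were 1.44 apart. The distance is not scaled to the size of a gene's change, and TFF1 had only 4 counts in siFOXA1.1 replicate 2. The part of low counts in these distances was not tested. The 8 libraries include those that chose both genes, so these distances are a description.

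**Figure D4:**
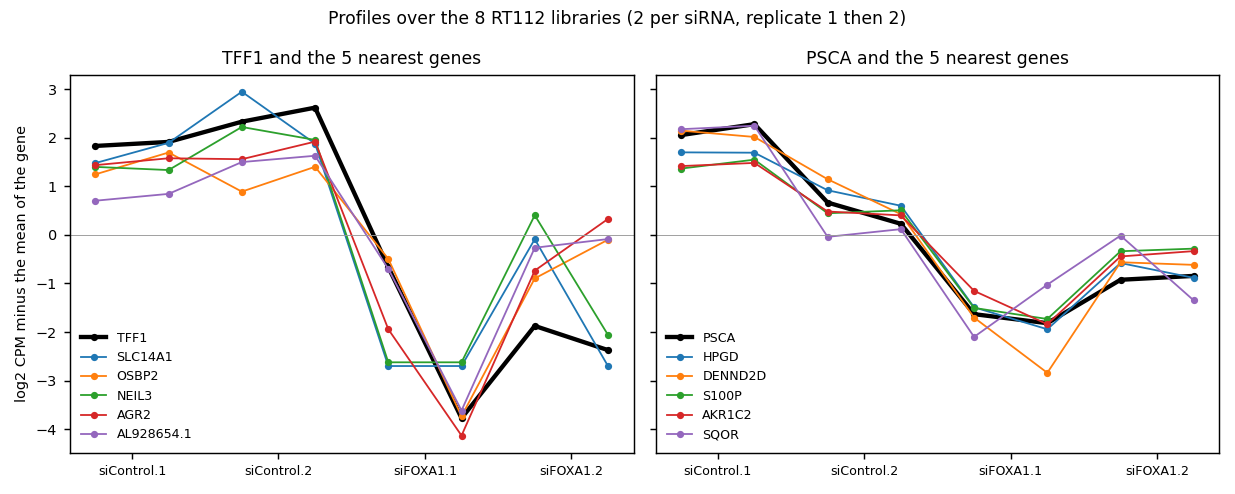
Log2 CPM minus the mean of the gene over the 8 RT112 libraries, for TFF1 and PSCA (thick black) and the 5 genes nearest to each (coloured). Libraries run by siRNA, replicate 1 then 2. PSCA steps down from siControl.1 to siControl.2 to siFOXA1, and its 5 neighbours do so from siControl.1 to siControl.2, while TFF1 is no lower in siControl.2 and drops furthest in siFOXA1.1 replicate 2.

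Related genes were read from fixed lists. Of 20 mucins and mucus-layer proteins, the usual partners of trefoil factors, 4 passed the filter in RT112 and 3 in SCaBER. MUC1, a membrane mucin, was lower in RT112 siControl (1.81 to 8.65 CPM) than in SCaBER siControl (50.8 to 61.1 CPM), by -3.22 in log2 (SE 0.36, adjusted p = 4.06e-06, edgeR), the opposite of TFF1. GKN1, a gastrokine of the stomach mucosa, had 3.62 to 8.02 CPM in RT112 siControl and was at 0 in SCaBER. With siFOXA1.1 in SCaBER, where 9.26% of all genes were called, MUC1 fell by 2.36 (SE 0.36, adjusted p = 0.000944) and ZG16 fell by 3.78 (SE 1.06, adjusted p = 0.0371). ZG16 was low, with 5.96 to 10.3 CPM in SCaBER siControl and 0 to 5.23 CPM in siFOXA1. It passed the filter on its siControl counts, which limits that p-value. The list had 0 of 3 called with siFOXA1.2, where only 0.0420% of all genes were called. In RT112 MUC1 was the 1 of 4 called with siFOXA1.1, and was lower, a share near the 32.6% of all genes.

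Of the 18 other protein disulfide isomerases 15 passed the filter in RT112. With siFOXA1.1, which called 32.6% of all genes, 5 were higher and 2 lower, a median of -0.15 against -0.01 over all genes, among them P4HB at 0.73 (SE 0.11, adjusted p = 4.88e-05), PDIA6 at 0.64, TMX4 at -1.18 and ERP44 at 0.86. AGR2 was lower in these same libraries, in which P4HB and PDIA6, enzymes that form disulfide bonds, were higher. With siFOXA1.2, where 2.04% of all genes were called, PDIA4 was the 1 called, at 0.85 (SE 0.16, adjusted p = 0.00827). PDIA4 also differed between the RT112 controls, by -1.15 for siControl.1 against siControl.2 (SE 0.20, adjusted p = 0.00343, edgeR). In SCaBER 2 of 14 rose with siFOXA1.1, against 9.26% of all genes called, PDIA4 by 0.90 (SE 0.21, adjusted p = 0.0154) and PDIA6 by 0.50 (SE 0.14, adjusted p = 0.0446).

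Of 24 other LY6/uPAR genes 7 were tested in RT112 and 8 in SCaBER. LY6K and LYPD1 had the line pattern opposite to that of PSCA and LY6D: LY6K had 2.36 to 6.80 CPM in RT112 siControl and 185 to 363 CPM in SCaBER siControl, and LYPD1 was at 0 in RT112 and at 38.6 to 72.2 CPM in SCaBER. With siFOXA1.1 in SCaBER 1 of 8 was higher and 2 were lower, where 9.26% of all genes were called. PLAUR, the urokinase receptor, rose by 1.65 (SE 0.25, adjusted p = 0.000944), while LY6K fell by 1.30 (SE 0.30, adjusted p = 0.0153) and LYPD1 by 1.02 (SE 0.30, adjusted p = 0.0488). In RT112 CD59, a complement inhibitor, was higher with siFOXA1.1, at 0.84 (SE 0.14, adjusted p = 0.000122). LY6K was lower there, so that 2 of 7 were called, a share near the 32.6% of all genes. With siFOXA1.2 0 of 7 were called in RT112 and 0 of 8 in SCaBER, against 2.04% and 0.0420% of all genes.

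Among candidate receptors of the secreted proteins, 3 of 6 were tested in each line. With siFOXA1.1 all 3 were called in RT112, where 32.6% of all genes were, and 1 in SCaBER, where 9.26% were. DAG1, dystroglycan, was lower with siFOXA1.1 in RT112 at -1.19 (SE 0.22, adjusted p = 0.000330) and fell in SCaBER by 0.91 (SE 0.19, adjusted p = 0.00682). ACKR3 was lower in RT112 at -1.15 (SE 0.21, adjusted p = 0.000368). Neither was called with siFOXA1.2. For DAG1 siFOXA1.1 against siFOXA1.2 gave -1.60 in RT112 (SE 0.24, adjusted p = 7.94e-05, edgeR). In SCaBER this difference was -1.20 (SE 0.21, adjusted p = 0.00434, edgeR). EGFR was higher in RT112 with siFOXA1.1 at 0.52 and with siFOXA1.2, where 2.04% of all genes were called, at 0.51.

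Of 17 secretory and luminal transcription factors, FOXA1 among them, 12 were tested in RT112. With siFOXA1.1 5 were lower, FOXA1 itself included, and 1 higher, where 32.6% of all genes were called: KLF5 was lower at -1.65 (SE 0.15, adjusted p = 2.60e-07), GATA3 at -0.82 (SE 0.11, adjusted p = 2.40e-05), and SOX9 was higher at 1.55 (SE 0.21, adjusted p = 2.08e-05). With siFOXA1.2, where 2.04% of all genes were called, ELF3 was lower at -1.03 (SE 0.14, adjusted p = 0.000440) and SOX9 higher at 1.29 (SE 0.21, adjusted p = 0.00251). ELF3 was not called with siFOXA1.1, and siFOXA1.1 against siFOXA1.2 gave 0.91 for it (SE 0.16, adjusted p = 0.000354, edgeR). Between the control siRNAs of RT112, where PSCA was higher with siControl.1, ELF3 was higher too, by 0.62 (SE 0.16, adjusted p = 0.0447). SOX9 was lower there by -1.09 (SE 0.26, adjusted p = 0.0353). Counting ELF3, which is in both lists, 4 of 14 luminal markers were higher and none lower, where 2.36% of all genes were called. The others were UPK2 at 1.16 (SE 0.21, adjusted p = 0.00579), KRT7 at 0.52 and UPK3B at 1.54. SPDEF, a factor of secretory cells, was under the limit of 3 counts in every library. None of these 5 lists had a member called in the pooled comparison of either line, which called 0.108% of all genes in RT112 and 0.00840% in SCaBER.

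LYPD3 is the member of this group that both lines expressed at high level. Its promoter window (RefSeq, GRCh38.p14, minus strand, chr19:43465609-43465858) is shown beside those of AGR2 and AGR3 because it held none of the letters searched and was richer in G and C, at 66.4% against 40.4% for AGR2 and 36.4% for AGR3.
LYPD3: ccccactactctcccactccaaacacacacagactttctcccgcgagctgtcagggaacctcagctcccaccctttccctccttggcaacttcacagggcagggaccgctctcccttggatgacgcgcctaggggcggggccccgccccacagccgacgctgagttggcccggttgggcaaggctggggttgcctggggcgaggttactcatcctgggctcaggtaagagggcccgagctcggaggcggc
Set against the name luminal secretory genes, LY6D was higher in the luminal line, and so was AGR2 as a description without a test. The levels of TFF1 and PSCA entered the choice of genes and do not bear on the name. LYPD3 was within 1.81-fold in both lines, TFF2 was counted in 2 RT112 libraries alone, and TFF3 and AGR3 were at or near 0 in both lines.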

How the data were processed

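RNA was measured in 16 libraries made with a 3' mRNA kit. The authors deposited raw counts per gene, produced per the deposited configuration with TrimGalore 0.6.2 (minimum quality 20, minimum length 10) and STAR 2.6.1a on hg38 and GENCODE 29. In the study's methods the build is hg19, and no coordinate was taken from the tables. The authors also deposited TPM values, used here for levels between genes. Deposited lists of the authors' own comparisons were not used. The dose of 10 nM is that of the labels.

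A separate fit was made per line in R 4.3.3 with edgeR 4.0.16 (TMM, filterByExpr, quasi-likelihood F test, Benjamini-Hochberg adjustment over all genes tested, threshold 0.05), giving 11986 genes in RT112, 11902 in SCaBER and 12309 between the lines. Pooled fits had 1 mean per target, and the fit between the lines had 1 mean per line over both control siRNAs. The other comparisons had 1 mean per siRNA in each line. The fit was tested on simulated data. Alternatives were DESeq2 1.42.0, the tool the study names, and limma 3.58.1 on log2(TPM + 1) or log2(TPM + 0.1), which understates changes of low genes, other scalings, no filter, the replicate block, and each library left out. One control siRNA alone and the interactions with line (15464 genes) were added after seeing the data. The difference between lines in response to siFOXA1 was not tested, since RT112 values chose the members.

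Members and lists were chosen with earlier results of these data known. Named genes were the members, FOXA1, up to 4 called genes of a list with the smallest p per comparison, and the 5 genes nearest to TFF1 or PSCA (log2 CPM with prior count 2, mean of at least 20 counts). The labels call the replicate number a batch, so numbers pair libraries; deviations of same-numbered libraries correlated at -0.0117 to 0.0199 in RT112 and 0.0215 to 0.246 in SCaBER (6 pairs of siRNAs each). Promoters came from RefSeq and matched 3 of 8 members.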

Additional observations from a re-analysis of the deposited data

Results flagged for a closer look

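In Dixon's test on groups of 4 libraries, 3 of 20 groups had a library apart from the others, where chance gives about 1 in 20 for continuous values. That rate does not hold for AGR3 and PSCA, whose libraries were mostly at 0 or 1 count: a single library above 3 libraries at 0 always gives a ratio of 1. The gap divided by the range was 0.876 for LYPD3 in RT112 siControl, where siControl.1 replicate 2 had 355 CPM and the other 3 had 257 to 269. It was 0.847 for AGR3 in RT112 siControl, where siControl.1 replicate 2 had 6 counts and the others 0 or 1, and 1 for PSCA in SCaBER siControl, where siControl.1 replicate 1 had 9 counts and the others 0.

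For LY6D the siFOXA1 siRNAs differed from each other unequally in the lines. RT112 minus SCaBER was 5.55 on the log2 scale (SE 1.16, n = 2 libraries per siRNA and line, adjusted p = 0.0174 in edgeR over 15464 genes, of which 1.18% were called). LY6D was higher with siFOXA1.1 in RT112, whereas in SCaBER it had 2 and 0 counts with siFOXA1.1 and 54 and 20 with siFOXA1.2. LYPD3 gave 0.16 (SE 0.26, adjusted p = 0.913) in the same test, and its difference between the control siRNAs gave -0.84 (SE 0.26, adjusted p = 0.496).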

How the results depend on the processing

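The number of members called in RT112 with both siRNAs pooled, 2 of 5, was the least stable value. It was 3 with DESeq2, 1 with library totals and with limma on log2(TPM + 1), and 4 without the filter. It was 0 with limma on log2(TPM + 0.1) or on log2(TPM + 1) without a filter, and 0 with libraries summed per siRNA. With the replicate block it was also 0, and it was 0 to 1 when 1 library was left out. With siFOXA1.2 in RT112 it went from 4 to 3 with DESeq2 and with limma on log2(TPM + 1), where AGR2 was the call lost. It went to 2 with log2(TPM + 0.1) and to 1 with log2(TPM + 1) without a filter, and between the RT112 controls from 1 to 0 in the latter. In SCaBER siFOXA1.1 against siControl gave 2 with DESeq2 and 0 against siControl.1 alone, in place of 1. For siFOXA1.1 against siFOXA1.2, 0 became 2 with DESeq2 and 1 without the filter or with the replicate block. Between the SCaBER controls 0 became 1 with DESeq2, without the filter and with the block, and was 0 to 1 when 1 library was left out. The block changed no other call. Directions turned for TFF1 between the siFOXA1 siRNAs of RT112 (-0.33 and -0.50 with limma at pseudocounts of 1 and 0.1, -0.33 without a filter, and, with 1 library left out, -2.02 to 1.52) and for LYPD3 with siFOXA1.2 in SCaBER against siControl.1 alone (-0.22). In SCaBER LY6D with 1 library left out ranged from -1.47 to 0.52 in the pooled comparison, from -0.061 to 2.26 with siFOXA1.2 and from -1.32 to 2.52 between the controls, where limma gave 0.26 and 0.57, and 0.26 without a filter. The cause was not tested. Depth limits TFF2, TFF3, AGR3 and, in SCaBER, AGR2, PSCA and LY6D.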

Other observations

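GKN1, another secreted protein of gastric mucosa and named in the report for its level in the lines, also had RT112 libraries that did not overlap between targets. The 4 siControl libraries had 3.62 to 8.02 CPM and the 4 siFOXA1 libraries 0 to 1.76 CPM, in a comparison where 5.30% of genes were lower without overlap. It was picked out for this after its values were seen.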
